A study of Mus musculus with 4 samples.

Results

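The ADAM and ADAMTS metalloproteases, the ADAMTS-like proteins and the TIMPs, their inhibitors, contributed 57 of the 26354 promoters in a deposited table of H3K9me2 ChIP-seq reads from mouse aorta. Members were every row whose symbol is Adam, Adamts or Adamtsl with a number (for Adam also a letter) or Timp1 to Timp4. By role, they were sorted into 15 Adam genes known for expression in testis, 14 other Adam genes (Adam1b among them, although it encodes a fertilin alpha subunit of sperm), 19 Adamts genes, 5 Adamtsl genes and 4 Timp genes. Of the 19 Adamts genes, 8 belong to the versican, aggrecan and COMP cleaving enzymes of the vessel matrix and 3 to the procollagen N-proteinases. A further 9 Adam genes known from testis were not analysed here, because no row of the table carried their symbol. The study removed genes with fewer than 20 input reads, and whether these 9 were among them is not known.

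All 4 libraries came from male C57Bl/6J mice with no treatment named, from the aortic medial layer after removal of adventitia and endothelium by hand and fixation in formaldehyde. The experiments v102 and v134 each gave 1 H3K9me2 ChIP library and 1 input library (chromatin without antibody, the background for read density). The sources used here give neither the age of these mice nor how many aortas went into a library. In each library, reads were counted within 1 kb of a transcription start site, so all windows are equally wide. Summed over the table, the ChIP libraries held 162233 and 229605 reads in v102 and v134, and the inputs 619100 and 1084349 reads. The median promoter had 4 and 5 ChIP reads beside 20 and 37 input reads. At this depth, single promoters are imprecise. Among 8 smooth muscle markers, 3 promoters were below input (Myh11 with 0 ChIP reads, Myocd and Lmod1) and 1 was above it (Smtn). Over all promoters, 17.0% were below input and 18.6% above, the background for this and the next marker counts. Of 4 leukocyte markers, Ptprc and Itgam were above input. The other leukocyte markers were not called: Cd68 had 6 and 0 ChIP reads against 24 and 54 input reads, and Cd3e 13 and 10 against 25 and 42. For endothelial and fibroblast markers, 1 of 5 and 1 of 4 (Pecam1 and Pdgfra) were below input and none above. With the experiment as a replicate block, Myocd, Lmod1, Pecam1 and Pdgfra lost their call (adjusted p from 0.0564 to 0.0922). In that fit 8.30% of all promoters were below input and 15.8% above. Because the tissue was not sorted into cell types, a mark present in more cells and a mark stronger in each cell cannot be told apart.

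H3K9me2 is a histone mark of silenced chromatin, written mainly by the EHMT family of methyltransferases. ADAM proteins are membrane-anchored, and many in testis are found on sperm, where they act in adhesion and in the maturation of one another, while relatives in other tissues shed membrane proteins such as TNF and Notch. ADAMTS enzymes are secreted and cut matrix proteins, and in the arterial wall they trim versican and aggrecan, the proteoglycans between the elastic layers. TIMPs inhibit matrix metalloproteinases, and TIMP3 also inhibits several ADAM and ADAMTS enzymes.

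Sequences are shown for 6 promoters with high, intermediate or low ratios, chosen as examples after their values were seen. They are the 250 bases before the RefSeq start (GRCm38.p6, given on the strand of the gene, 5′ to 3′), with each CG dinucleotide in capitals. Adam29 (chr8:55906965-55907214, minus strand) and Adam26b (chr8:43528138-43528387, minus strand) are testis genes whose promoters were above input, and Adam22 (chr5:8368161-8368410, minus strand) is a CpG-rich promoter that was also above it. Adamts1 (chr16:85803114-85803363, minus strand) and Adamts2 (chr11:50601835-50602084, plus strand) were below input, and Timp1 (chrX:20869916-20870165, plus strand) had the highest ratio of the inhibitors.
Adam29: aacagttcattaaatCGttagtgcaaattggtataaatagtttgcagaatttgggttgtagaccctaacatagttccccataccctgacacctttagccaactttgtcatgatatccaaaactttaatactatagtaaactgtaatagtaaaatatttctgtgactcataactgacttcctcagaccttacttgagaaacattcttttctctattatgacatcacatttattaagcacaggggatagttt
Adam26b: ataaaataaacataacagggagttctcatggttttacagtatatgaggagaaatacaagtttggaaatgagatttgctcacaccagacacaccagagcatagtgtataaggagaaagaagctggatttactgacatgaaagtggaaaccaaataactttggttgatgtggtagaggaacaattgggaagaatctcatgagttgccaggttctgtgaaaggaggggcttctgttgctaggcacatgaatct
Adam22: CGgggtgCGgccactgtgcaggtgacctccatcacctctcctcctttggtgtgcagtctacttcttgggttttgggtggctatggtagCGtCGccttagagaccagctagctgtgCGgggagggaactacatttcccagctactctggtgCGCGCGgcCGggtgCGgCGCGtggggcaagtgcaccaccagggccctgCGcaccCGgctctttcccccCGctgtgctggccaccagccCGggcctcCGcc
Adamts1: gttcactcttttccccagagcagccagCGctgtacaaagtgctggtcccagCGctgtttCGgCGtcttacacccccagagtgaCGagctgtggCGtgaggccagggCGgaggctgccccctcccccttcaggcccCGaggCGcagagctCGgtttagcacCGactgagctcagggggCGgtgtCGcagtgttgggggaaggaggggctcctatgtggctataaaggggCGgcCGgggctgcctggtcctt
Adamts2: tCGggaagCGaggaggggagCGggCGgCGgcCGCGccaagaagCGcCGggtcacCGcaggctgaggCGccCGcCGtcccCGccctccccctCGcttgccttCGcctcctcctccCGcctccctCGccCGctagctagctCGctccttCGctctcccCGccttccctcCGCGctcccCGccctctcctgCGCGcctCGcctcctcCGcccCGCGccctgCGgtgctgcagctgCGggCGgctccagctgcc
Timp1: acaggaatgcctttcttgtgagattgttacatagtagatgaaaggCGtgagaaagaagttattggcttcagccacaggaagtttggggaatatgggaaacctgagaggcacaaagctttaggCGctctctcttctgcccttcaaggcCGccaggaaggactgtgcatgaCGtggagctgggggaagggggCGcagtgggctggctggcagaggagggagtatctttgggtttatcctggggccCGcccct
These stretches hold 1 CG in Adam29, 0 in Adam26b, 17 in Adam22, 15 in Adamts1, 34 in Adamts2 and 6 in Timp1. CG reads the same on both strands, and its median over the 32851 RefSeq promoter windows of this length was 6, with 92.1% holding at least 1. RefSeq promoter sequences were at hand for 31 of the 57 members.

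Each promoter was described by 3 measures. The deposited ratio is summed ChIP reads over summed input reads, unscaled, with a median of 0.162 and a 75th percentile of 0.343 over all promoters. The log2 ratio was computed in each experiment after scaling each library by its promoter total, with a pseudocount of 1 read, and a percentile gives the share of all promoters with a lower mean. A promoter is called above or below input by edgeR's quasi-likelihood test over all 26354 promoters at an adjusted p under 0.05 (2 libraries against 2). Of the 57 members, 9 were above input and 12 below. Over all promoters 18.6% were above and 17.0% below, so as a set the members stood near the background in both directions. The median percentile of the members was 50.1. Within the set, the calls differed between roles, although 9 of the 15 testis Adam and all 4 Timp promoters were not called. Promoters above input were those of 6 testis Adam and 3 other Adam genes, and no Adamts, Adamtsl or Timp promoter was above input. The 12 below input belonged to 4 other Adam, 6 Adamts and 2 Adamtsl genes.

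**Figure D1:**
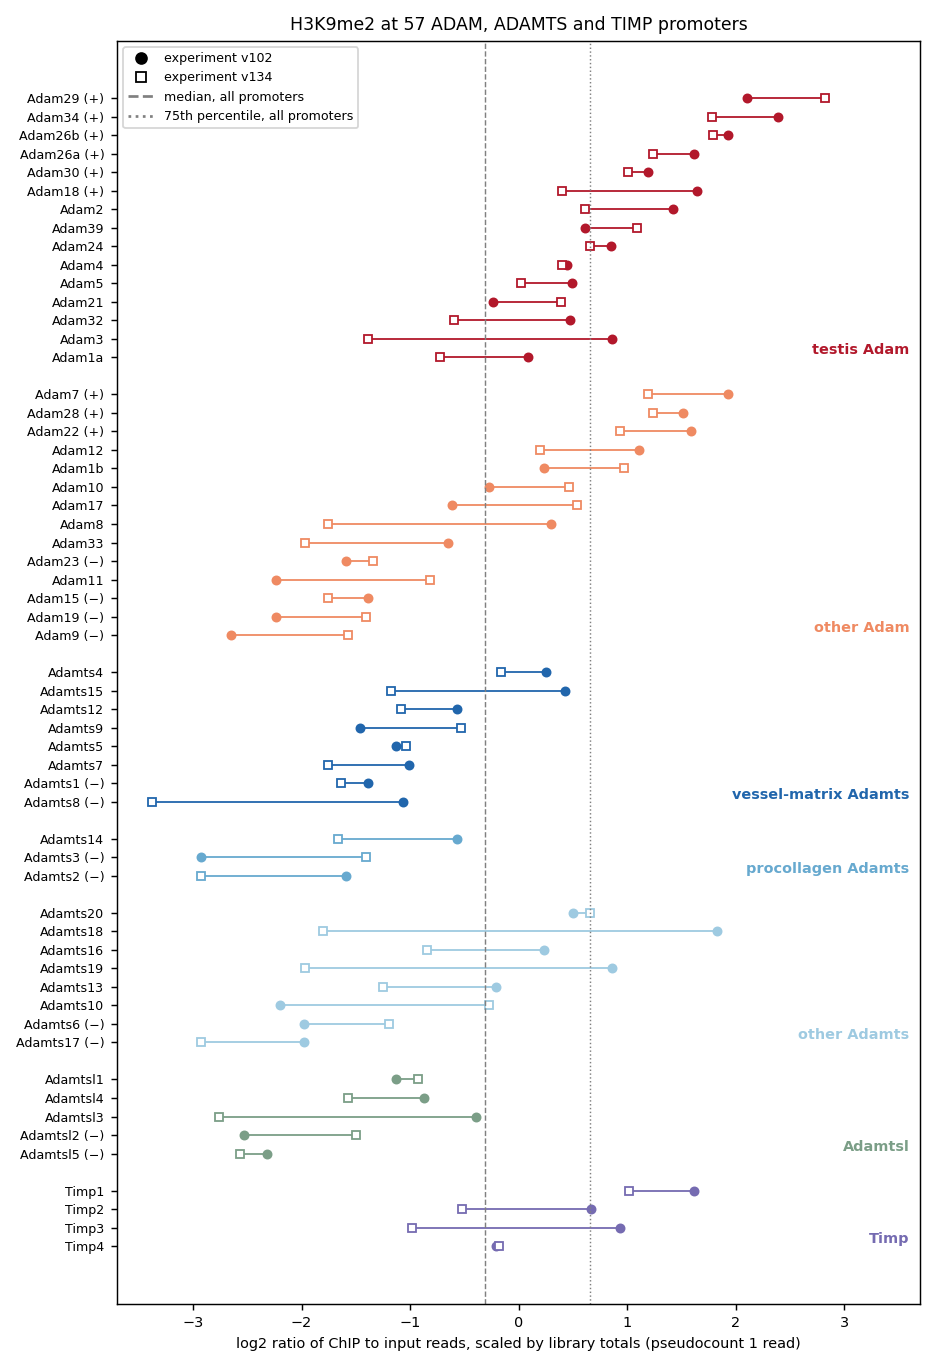
Log2 ratio of ChIP to input reads (x axis, scaled by library totals, pseudocount 1 read) for each of the 57 members in experiment v102 (filled circles) and v134 (open squares), with the 7 role groups in separate blocks and lines at the median and 75th percentile of the mean over all 26354 promoters. A plus or minus sign after a name marks a promoter above or below input: 9 carry a plus, all in the Adam blocks, and 12 carry a minus.

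The calls leaned on the pairing and on single libraries. Each ChIP has its own input, and with the experiment as a replicate block 7 members were above input and 6 below, against a background of 15.8% and 8.30% of all promoters. Of the first 9, Adam26a (adjusted p = 0.0837) and Adam18 (0.0659) lost their call. Without the v102 input, 4 members and 11.5% of all promoters were above input, and 0 members and 1.88% of all promoters below. Without the v134 input, 5 members (11.7% of all promoters) were above and 2 (1.95%) below. Leaving out the v134 ChIP gave 8 members above (12.9% of all promoters) and 7 below (8.83%), and leaving out the v102 ChIP 8 above (19.1%) and 8 below (15.2%). With 1 library left in a group, its spread was taken from the other group. DESeq2 called 4 members above and 0 below, beside 11.5% and 0.110% of all promoters, and gave no adjusted p for 43 of the 57 and for 17372 of the 26354. At an unadjusted p under 0.05, edgeR had 11 members above and 17 below, beside 21.4% and 24.8% of all promoters, and DESeq2 7 and 7, beside 15.1% and 9.47%.

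Testis Adam promoters lay toward the upper end of the table. Their median percentile was 78.7, with a range of 49.8 to 99.0, and their median deposited ratio of 0.393 compares with 0.162 over all promoters. Of the 15, 6 were above input and 0 below by edgeR, beside 18.6% and 17.0% of all promoters. However, 14 of the 15 windows had GC below 50%, and 33.3% of all placed promoters with such GC were above input. With the replicate block 4 of the 15 were above and 0 below (15.8% and 8.30% of all promoters). In that fit 2923 of the 10080 placed promoters with GC below 50% were above input. The counts at an unadjusted p under 0.05 were 7 and 0 by edgeR (21.4% and 24.8% of all promoters) and 4 and 0 by DESeq2 (15.1% and 9.47%). Summed over the 15 promoters, the ChIP to input ratio scaled by library totals was 2.01 in v102 (95% interval 1.61 to 2.51) and 1.64 in v134 (1.37 to 1.96). Intervals of ratios are Wilson intervals of the ChIP share of reads, and cover counting error only.

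Adam29, a gene known from testis, had the highest ratio of all members. Its promoter had 8 ChIP reads in v102 and 29 in v134 beside 7 and 19 input reads. In both experiments its ChIP reads outnumbered its input reads, although each input had the larger total over the table. The deposited ratio was 1.42 (95% interval 0.866 to 2.34), and the fitted log2 fold change 2.75 ± 0.45 (SE, adjusted p = 5.46e-08). Adam34 had 10 and 23 ChIP reads with 7 and 32 input reads, a deposited ratio of 0.846 and a log2 fold change of 2.04 ± 0.43 (adjusted p = 4.09e-05). Adam26b, which encodes one of the testases, had 9 and 10 ChIP reads with 9 and 14 in the inputs. Its ratio was 0.826, and its log2 fold change 1.97 ± 0.56 (adjusted p = 0.0029). Its neighbour Adam26a followed with 7 and 11 ChIP reads against 9 and 23 input reads (log2 fold change 1.44 ± 0.54, adjusted p = 0.0278). All 4 lie on the distal part of the chromosome 8 Adam genes, and both experiments ranked them in their upper quartile. Low input counts stand beside these values: 7 to 9 reads in the v102 input, where the median promoter had 20 and the lower quartile ended at 16.

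Adam26a and Adam26b are close relatives. Aligned end to end, their 2 kb windows were identical at 79.2% of aligned positions, the highest value among the 105 pairs of testis Adam windows (median 49.8%). Reads that match both copies could be placed at either, and how such reads were treated is not given in the sources used here. Their ratios are therefore uncertain as separate values.

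Adam30 and Adam18 were above input at more ordinary coverage. For Adam30, on chromosome 3, ChIP reads numbered 11 and 25 and input reads 19 and 60 (log2 fold change 1.16 ± 0.39, adjusted p = 0.0122), and both experiments put it in the upper quartile. Adam18 had 17 ChIP reads in v102 but 11 in v134, with 21 and 42 in the inputs, so its log2 ratio was 1.64 in the first experiment and 0.40 in the second. Its fitted log2 fold change was 1.12 ± 0.42 (adjusted p = 0.0276). Adam2, the fertilin beta subunit of sperm, missed the threshold with 13 and 9 ChIP reads beside 19 and 30 input reads (log2 fold change 1.11 ± 0.47, adjusted p = 0.0506).

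The other 8 testis Adam promoters did not pass the test. Adam39 had 3 and 8 ChIP reads with 9 and 19 input reads, and Adam24, the gene of testase 1, had 8 and 7 with 18 and 23. Both ratios were above the 75th percentile of all promoters, at 0.393 and 0.366. Adam24 was also the remaining testis promoter that both experiments ranked in their upper quartile. Adam4 had 4 and 6 ChIP reads against 13 and 24 input reads, and its chromosome 12 neighbour Adam21 had 5 and 9 against 26 and 35. For Adam5 the counts were 6 and 5 in the ChIP and 18 and 27 in the inputs. Adam32 had 3 and 7 ChIP reads with 10 and 56 input reads, an unequal pair of inputs. Adam3, the cyritestin needed for sperm to reach the egg, had 9 ChIP reads in v102 and 2 in v134 with inputs of 20 and 36, so the experiments disagreed on its side of the median. Adam1a, which encodes fertilin alpha, ended the list with 4 and 4 ChIP reads against 17 and 38.

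Start sites limit some of these values. The table gives symbols without coordinates, and positions here are GENCODE vM21 gene starts on GRCm38, in which all 57 members matched 1 gene. For 3 of the 31 members with a RefSeq promoter the start lay over 1 kb away, by 23.8 kb for Adam1a, 44.5 kb for Adam34 and 61.1 kb for Adamts20. The GC content of the Adam1a window was 62.3% at the GENCODE start and 43.7% at the RefSeq start. That of Adam34 was 46.9% and 37.7%, and that of Adamts20 44.2% and 60.8%. Which start the read counts belong to is not given. The Adam1a window at the GENCODE start also overlaps that of Mapkapk5, and reads there cannot be assigned to either gene.

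Along chromosome 8, testis Adam promoters differed by segment. The 6 distal ones (Adam24, Adam39, Adam26b, Adam26a, Adam34 and Adam29) had a pooled scaled ratio of 2.91 in v102 (95% interval 1.98 to 4.28) and 3.20 in v134 (2.44 to 4.19), and 4 were above input. For the 4 proximal ones (Adam18, Adam3, Adam5 and Adam32) it was 1.94 (1.29 to 2.90) and 0.733 (0.483 to 1.11), with 1 above input. The intervals of the 2 segments overlapped in v102 and not in v134. Median GC content was 35.8% in the distal and 43.4% in the proximal windows, with a median of 5 and 39 CG dinucleotides. The part of base composition in this difference was not tested, and the split into segments was not among the planned comparisons. In the segment with Adam26b, Adam26a and Adam34, every placed promoter within 300 kb of any of them was above input. Its other members were Zfp42, a pluripotency factor also known as Rex1, with 13 and 18 ChIP reads beside 10 and 35 input reads (adjusted p = 0.000488), and Gm5346 with 14 and 23 beside 16 and 33 (7.33e-05). With the replicate block, Adam26a lost its call (adjusted p = 0.0837) and the others kept theirs. The windows of this segment had GC from 35.6% (Adam26b) to 46.9% (Adam34), and 33.3% of all placed promoters with GC below 50% were above input. Near Adam29, the only other promoter within 300 kb was that of the glycine receptor subunit Glra3, 33.5 kb away, with 23 and 26 ChIP reads beside 20 and 27 input reads (9.69e-08). Around Adam24 and Adam39, no promoter was above input. Next to the proximal segment, Ido1, the enzyme that starts tryptophan breakdown, was below input with 2 and 1 ChIP reads against 31 and 38, as was Adam9 beyond Adam32. In all, 64 promoters of other genes lay within 300 kb of a testis Adam promoter, and 4 of them were above input (Zfp42, Gm5346, Glra3 and Cox16) and 15 below, beside 18.6% and 17.0% of all promoters. With the replicate block 4 were above and 6 below (15.8% and 8.30% of all promoters). Their median percentile was 42.6, below that of the 15 testis Adam promoters. They were not matched in GC content to the testis Adam windows (median 42.2%), and ran from 36.1% (Gm5346) to 64.4% (Atxn2). Some of their windows nearly coincide, as for Gm20498 and Synj2bp, which had equal counts in every library.

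**Figure D2:**
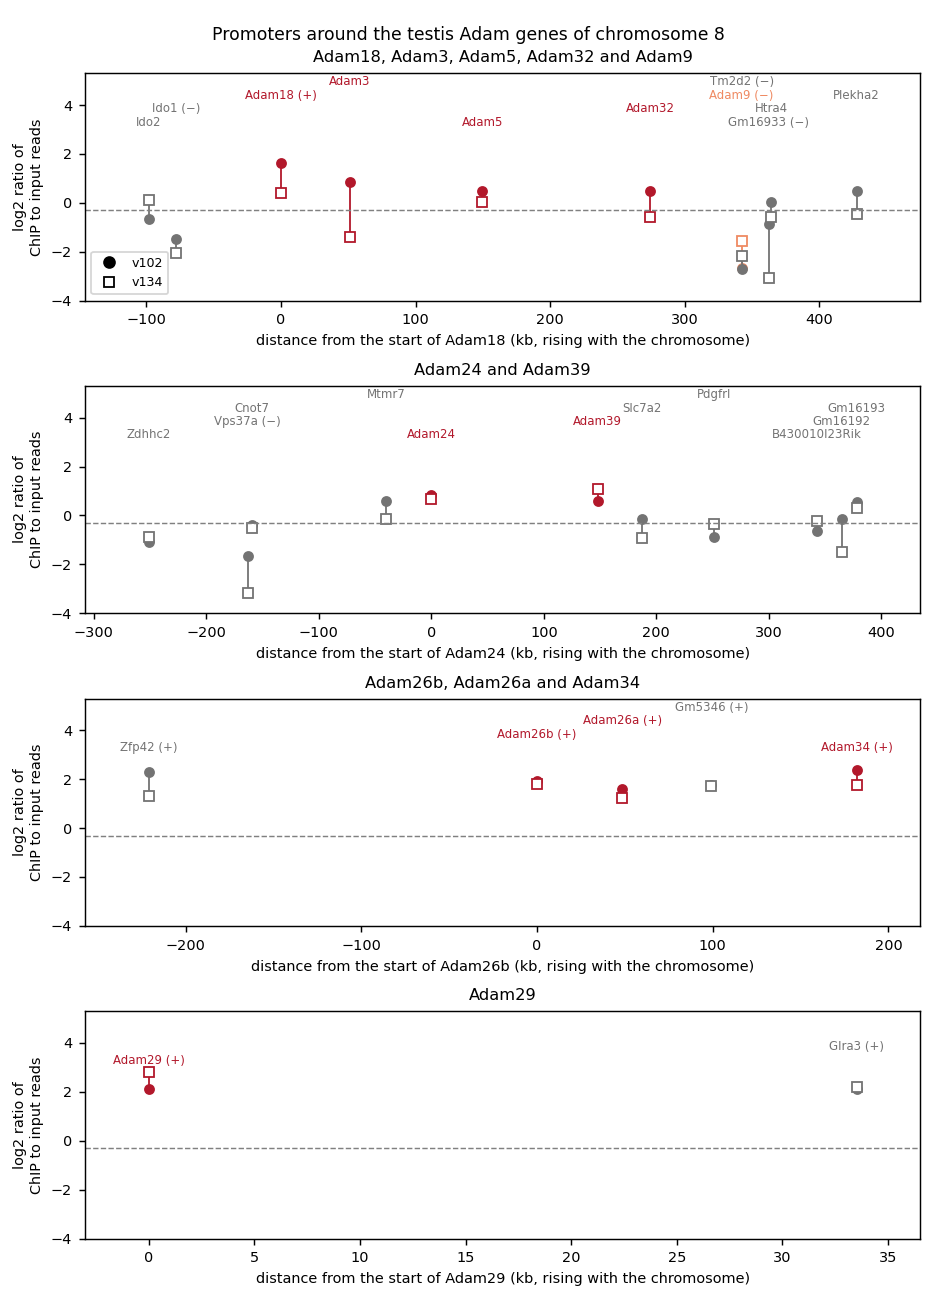
Log2 ratio of ChIP to input reads (y axis) in v102 (filled circles) and v134 (open squares) for promoters within 300 kb of the testis Adam genes of chromosome 8, by distance in kb from one Adam start (x axis); testis Adam genes are red, Adam9 orange, other genes grey, and the dashed line is the median of all promoters. All 5 promoters around Adam26b and both around Adam29 carry a plus (above input), whereas Adam18 alone does in the uppermost segment and none does around Adam24. With the replicate block, Adam26a and Adam18 lost their call. Of all placed promoters with GC below 50%, 33.3% were above input in the fit shown.

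Among the 14 other Adam promoters, 3 were above input and 4 below, beside 18.6% and 17.0% of all promoters. The other 7 were not called, and the median percentile of the 14 was 47.9. Adam7, made in the epididymis and passed to sperm, had 23 and 28 ChIP reads beside 23 and 59 input reads (log2 fold change 1.61 ± 0.36, adjusted p = 8.47e-05). Adam28, 122 kb from it on chromosome 14 and known from lymphocytes and epididymis, had 11 and 16 beside 15 and 33 (1.44 ± 0.44, adjusted p = 0.00635). Adam22, a receptor of the synaptic protein LGI1 without protease activity, had 21 and 20 beside 27 and 51 (1.35 ± 0.38, adjusted p = 0.00228). Adam22 was the sole member with a GC content of at least 50% that was above input. All 3 ranked in the upper quartile in v102 and in v134, and Adam7 and Adam22 were called in each of the 9 edgeR fits in which they were tested.

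Adam promoters below input had few ChIP reads. Adam9, a broadly expressed sheddase, had 0 and 3 against 23 and 55 input reads (deposited ratio 0.0385, 95% interval 0.0128 to 0.115, adjusted p = 0.00689). Its window overlaps that of Tm2d2. Adam19, which acts in heart valve development, had 0 and 1 against 17 and 24 (adjusted p = 0.0263). Adam15 had 1 and 1 against 19 and 31 (adjusted p = 0.0345). Adam23, like Adam22 a partner of LGI proteins, had 1 and 2 against 22 and 35 (adjusted p = 0.0425), on the other side of the input from Adam22. With the replicate block, Adam9 stayed below input (adjusted p = 0.0325) while Adam19 (0.0764), Adam15 (0.0792) and Adam23 (0.0929) did not pass.

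The principal sheddases were near the middle. Adam10, the main sheddase of Notch, had a ratio of 0.242 (percentile 61.5), and Adam17, the TNF convertase, one of 0.235 (percentile 58.0). Neither passed the test (adjusted p = 0.759 and 0.813). The other uncalled promoters, Adam12, Adam1b, Adam8, Adam33 and Adam11, spanned percentiles from 15.4 (Adam11) to 74.9 (Adam12). Adam12 shares part of its window with A130023I24Rik.

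Vessel-matrix Adamts promoters lay low. None of the 8 was above input and 2 were below, beside 18.6% and 17.0% of all promoters. The lowest GC content of their windows was 50.6%. Of all placed promoters with GC of at least 50%, 4.51% were above input and 25.8% below. The median percentile of the 8 was 28.6 and their median deposited ratio 0.0846. The pooled scaled ratio was 0.468 in v102 (95% interval 0.292 to 0.750) and 0.340 in v134 (0.221 to 0.522). Adamts1, an early response protease that cleaves versican, had 1 and 2 ChIP reads against 19 and 43 input reads (deposited ratio 0.0484, 95% interval 0.0161 to 0.146, adjusted p = 0.0296). Adamts8 had 2 and 0 against 23 and 48 (0.0282, 0.00760 to 0.104, adjusted p = 0.00473). With the replicate block Adamts8 remained below input (adjusted p = 0.0324) and Adamts1 did not (0.0758). Without the v134 ChIP, or without either input, neither was called, and without the v102 ChIP 2 of the 8 were, 1 of them shared with the first pair.

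The other 6 were not called. Adamts7, whose product cleaves COMP, came next with 2 and 1 ChIP reads against 22 and 31 input reads (adjusted p = 0.0593). Adamts5, an aggrecanase, had 2 and 2 against 24 and 28. Adamts9 had 1 and 5 against 20 and 40, and Adamts12 had 2 and 4 against 16 and 49. Adamts15 had 5 and 2 against 16 and 31, so the experiments placed it on opposite sides of the median of all promoters. Adamts4, the other aggrecanase studied in arterial disease, was the highest with 4 and 6 ChIP reads against 15 and 36, at percentile 60.2. Adamts1 and Adamts5 lie 98.7 kb apart on chromosome 16 and Adamts15 and Adamts8 20.1 kb apart on chromosome 9.

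The procollagen N-proteinases, which trim fibrillar collagens, had the lowest median ratio of the Adamts groups, 0.0192. Adamts2 had 1 and 0 ChIP reads against 22 and 35 input reads (deposited ratio 0.0175, 95% interval 0.00306 to 0.101, adjusted p = 0.00551), in a window that overlaps that of Gm12198. Adamts3 had 0 and 1 against 28 and 24 (0.0192, 0.00335 to 0.110, adjusted p = 0.00815). Adamts14 was not called (2 and 1 against 16 and 29, adjusted p = 0.117). Both Adamts2 (adjusted p = 0.031) and Adamts3 (0.0383) stayed below input with the replicate block.

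Of the 8 other Adamts promoters, 2 were below input, beside 17.0% of all promoters. Adamts17, a protease tied to fibrillin, had 1 and 0 ChIP reads against 29 and 35 input reads (deposited ratio 0.0156, 95% interval 0.00273 to 0.0895, adjusted p = 0.00223). Adamts6 had 0 and 5 against 14 and 64 (adjusted p = 0.0383, or 0.0912 with the replicate block). Adamts18 and Adamts19 differed most between the experiments: 12 ChIP reads in v102 and 1 in v134 for Adamts18, and 9 and 1 for Adamts19, with inputs of 13 and 32 and of 20 and 36. Their log2 ratios were 1.83 and -1.80, and 0.86 and -1.97. Adamts20 had the highest mean among these 8 (percentile 73.2), and Adamts16, Adamts13, whose product cleaves von Willebrand factor, and Adamts10 were not called. Over all 19 Adamts promoters the median percentile was 27.3, and by edgeR 0 were above input and 6 below (18.6% and 17.0% of all promoters). At an unadjusted p under 0.05 the counts were 0 and 7 by edgeR (21.4% and 24.8% of all promoters) and 0 and 4 by DESeq2 (15.1% and 9.47%).

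Adamtsl proteins resemble ADAMTS enzymes but lack the protease domain, and several bind fibrillin microfibrils. The 5 promoters together had 7 ChIP reads in v102 and 6 in v134. The pooled scaled ratio was 0.262 in v102 (95% interval 0.124 to 0.553) and 0.173 in v134 (0.0781 to 0.382). Adamtsl5 had 0 ChIP reads in both experiments against 18 and 27 input reads (adjusted p = 0.00253). Over both experiments that is 0 beside 45 input reads, and a count of 0 allows up to 3. Adamtsl2, which is mutated in geleophysic dysplasia, had 0 and 2 against 21 and 39 (adjusted p = 0.0137, or 0.054 with the replicate block). Adamtsl1, Adamtsl3 and Adamtsl4 were not called.

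No Timp promoter passed the edgeR test, and at an unadjusted p under 0.05 1 (Timp1) was above input by edgeR and 0 by DESeq2, beside 21.4% and 15.1% of all promoters. Timp1, an inducible inhibitor of matrix metalloproteinases, had 7 and 8 ChIP reads beside 9 and 20 input reads, a ratio of 0.517 (95% interval 0.280 to 0.955) and a log2 fold change of 1.31 ± 0.58 (adjusted p = 0.0606). Both experiments ranked it in their upper quartile, on few input reads. Timp2, a cofactor in MMP2 activation, had 9 and 4 against 23 and 33 (adjusted p = 0.834). Timp3, which binds to the matrix, had 7 and 2 against 15 and 27 (adjusted p = 0.953). Timp4 had 9 and 10 against 43 and 58 (adjusted p = 0.769). For Timp2 and Timp3 the log2 ratio was positive in v102 and negative in v134, and Timp4 had nearly equal values of -0.21 and -0.18.

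In the direct comparison of groups, the median log2 ratio of the 15 testis Adam promoters exceeded that of the 8 vessel-matrix Adamts promoters by 1.90 in v102 and 1.74 in v134 (mean 1.82 ± 0.12, SD, n = 2), a ratio of 3.73 and 3.33. From summed reads the ratio of the pooled ratios was 4.30 in v102 (95% interval 2.54 to 7.28) and 4.83 in v134 (3.03 to 7.71, both from the Poisson error of the sums on a log scale). In v102, 13 of the 15 testis promoters lay above the highest of the 8 Adamts promoters, and in v134, 12 did. That highest promoter was not extreme: Adamts15 stood at percentile 65.2 of all promoters in v102, and Adamts4 at percentile 55.5 in v134. The 2 groups also differed in GC content, as given below. Promoters are not replicates of one another, so the comparison is given without a test, with the difference larger than the spread between the experiments. With all 19 Adamts promoters in place of the 8, an alternative added after the values were seen, the difference was 1.86. It was 1.83 with Adam1b counted among the testis genes, added likewise.

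**Figure D3:**
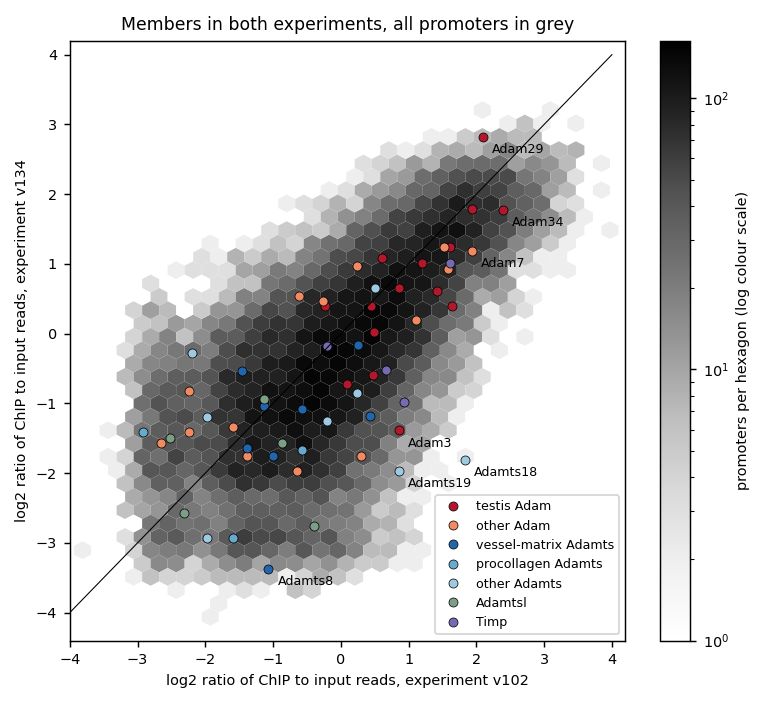
Log2 ratio of ChIP to input reads in v102 (x axis) and v134 (y axis); grey hexagons count all 26354 promoters on a log colour scale, coloured points are the 57 members by role group, and the line marks equal values. The highest points in both experiments are testis Adam promoters such as Adam29 and Adam34, the vessel-matrix Adamts point with the highest mean (Adamts4) lies near 0 on both axes, and Adamts18 and Adamts19 lie far below the line.

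The members' ratios were ordered similarly in both experiments, with a Spearman rho of 0.646 over 57 members and of 0.689 over all promoters. Within the 19 Adamts promoters rho was 0.10, and within the 15 testis Adam promoters 0.71. These values are over promoters measured in the same libraries, at ChIP counts of 0 to 29 reads. Both experiments ranked 10 members in their upper quartile, compared with 17.8% of all promoters: Adam29, Adam34, Adam26b, Adam26a, Adam30, Adam24, Adam7, Adam28, Adam22 and Timp1.

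Base composition moved with the ratio. The rank correlation of the mean log2 ratio with the GC content of the 2 kb window was -0.73 over the 57 members and -0.54 over the 22329 promoters that could be placed. Testis Adam windows had a median GC content of 42.2% and 14 CG dinucleotides, and vessel-matrix Adamts windows 57.1% and 102.5. Of the 19 members with GC below 50%, 8 were above input and 1 (Adamts6) below. Of the 38 with more, 1 was above and 11 below. With the replicate block, 6 of the first were above input and 0 below, and 1 of the second above and 6 below. Over all placed promoters, 33.3% of those with GC below 50% were above input and 7.80% below, compared with 4.51% and 25.8% of those with more. With the block, 2923 of the 10080 placed promoters with GC below 50% were above input, and 431 of the 12249 with more. The shares below input were then 3.84% and 12.7%. By their RefSeq starts Adam1a (43.7%) and Adamts20 (60.8%), neither of them called, would change GC class. The GC trend was fitted without promoters whose symbols start with Olfr, Vmn, Krtap or Defb, and was then subtracted from every placed promoter. A fit with those promoters included was not tested. After removal of the GC trend, the difference between testis Adam and vessel-matrix Adamts medians was 1.21 in v102 and 0.99 in v134. Without Adam1a and Adam34, whose starts are uncertain, it was 0.66 (mean of both experiments, an alternative added after the values were seen). The median percentile after GC removal was 74.3 for testis Adam and 35.1 for vessel-matrix Adamts promoters. Adam22 (percentile 98.0), Adam34 (97.9), Adam29 (95.2) and Timp1 (94.3) were then the highest members, and Adamts6 (3.01) the lowest. The part of base composition in these ratios beyond that trend was not tested.

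**Figure D4:**
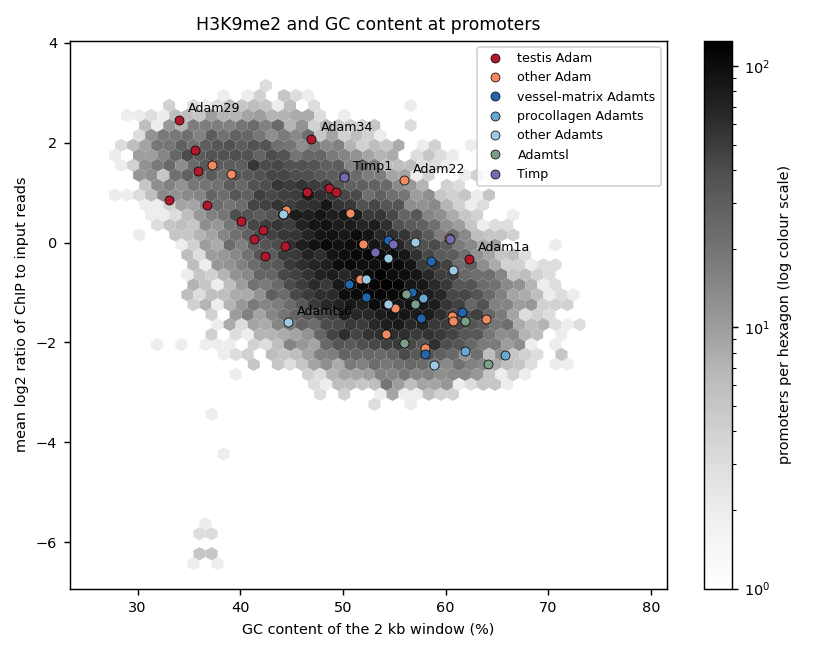
GC content of the 2 kb window in percent (x axis) against the mean log2 ratio of ChIP to input reads over both experiments (y axis); grey hexagons count the 22329 placed promoters on a log colour scale and coloured points are the 57 members by role group. Of the testis Adam points all but Adam1a lie below 50% GC, and Adam22, Timp1 and Adam34 lie high for their GC content.

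Partners of these proteases were described from lists of their activators, inhibitors, substrates and sperm chaperones. Of 48 genes, 46 were in the table, with 3 above input and 10 below (18.6% and 17.0% of all promoters) and a median percentile of 36.6. With the replicate block 3 were above and 6 below (15.8% and 8.30% of all promoters), and Pcsk7 (adjusted p = 0.0757), Tspan33 (0.062), Papln (0.099) and Col1a1 (0.0627) lost their call. The 3 above input were among the 9 sperm partners, whose windows had a median GC content of 49.1%, and 33.3% of all placed promoters with GC below 50% were above input. Calr3, the testis calreticulin needed for Adam3 on sperm, had 18 and 38 ChIP reads beside 27 and 60 input reads (adjusted p = 4.46e-05). Ly6k had 13 and 20 beside 16 and 35 (0.000733), and Prss37 had 16 and 28 beside 20 and 53 (0.00034). Of the other 6 sperm partners, Ace was below input, with 0 and 1 against 19 and 36 (0.00705), and Clgn, Pdilt, Tpst2, Tex101 and Izumo1 were not called. At the GENCODE gene start, the window of Ace lies at the somatic form of the gene, and the testis form starts further inside the gene.

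Among 13 genes of activation and trafficking, 4 were below input, beside 17.0% of all promoters. With the replicate block 2 were (8.30% of all promoters). Their windows had a median GC content of 56.9%, and 25.8% of all placed promoters with GC of at least 50% were below input. Furin, the proprotein convertase that activates ADAM and ADAMTS zymogens, had 0 and 1 ChIP reads against 16 and 46 input reads (adjusted p = 0.00358), and Frmd8, a partner of the iRhom carriers of Adam17, had 1 and 1 against 20 and 49 (0.00608). The others were Pcsk7 and the Adam10 partner Tspan33. Of 4 inhibition and clearance genes, with a median GC content of 57.5%, 3 were below, and 2 with the replicate block. Reck, a membrane-bound protease inhibitor, had 0 ChIP reads against 20 and 28, and Lrp1, the endocytic receptor of several ADAMTS enzymes and of TIMP3, had 0 against 17 and 34 (adjusted p = 0.0018 and 0.00136). Papln was the third. Of 12 matrix substrates Col1a1 was below input, and Vcan, the versican gene, had 4 and 1 ChIP reads against 26 and 36 (adjusted p = 0.101). Of 8 shed substrates Tnf was below, with 0 and 1 against 17 and 32 (0.0127). No gene of these 4 lists was above input, beside 18.6% of all promoters and 4.51% of placed promoters with GC of at least 50%.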

How the data were processed

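In 2 experiments, chromatin of the medial aorta of male mice was sequenced after H3K9me2 ChIP and as input. The authors trimmed paired-end reads (cutadapt 1.9.1 and Trim Galore 0.4.2 per the submitters' processing notes), aligned them to GRCm38 with Bowtie2 2.2.7 and deposited raw counts within 1 kb of each start site, quantified with SeqMonk. They also deposited a ratio (ChIP reads of both experiments over input reads of both), without library scaling, which was recomputed at all 26354 promoters. The authors removed genes with fewer than 20 input reads, and the lowest summed input was 21 reads. The annotation and the handling of duplicate reads are not given in the sources used here.

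The counts of all promoters were TMM-normalized and entered edgeR's quasi-likelihood test (version 4.0.16, in R 4.3.3), and p-values were adjusted by Benjamini-Hochberg. DESeq2 1.42.0 served as an alternative tool. The associated inputs pair the libraries, and the differences between experiments in ChIP and in input had r = 0.10 across promoters. GC content came from GRCm38 at GENCODE vM21 gene starts, and its trend was removed by lowess (fraction 0.3, statsmodels 0.14.6). The lowess was fitted without promoters whose symbols start with Olfr, Vmn, Krtap or Defb, and its curve was subtracted from every placed promoter. Tables and plots were made in Python 3.11.15 (pandas 2.3.3, numpy 2.4.6, scipy 1.17.1, matplotlib 3.10.9). Read counts in each library are given for testis Adam, vessel-matrix Adamts and Timp genes and for other members with an adjusted p under 0.05, the remaining members by range and example. Genes within 300 kb of testis Adam starts and partner lists were added. Members and lists were chosen with earlier results of these data known. Alternatives were other scalings, a minimum of 20 reads in each input, other pseudocounts, the replicate block, removal of the GC trend and of mitochondrial promoters, and leaving out each library.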

Additional observations from a re-analysis of the deposited data

How the results depend on the processing

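All 14 alternative values of the contrast between testis Adam and vessel-matrix Adamts promoters kept its direction, whereas the counts of calls depended on the fit. With the replicate block, the 12 members below input became 6 and the 2 vessel-matrix Adamts promoters became 1, while 7 members and 4 testis Adam promoters were above. DESeq2 gave 4 members above (2 of them testis Adam), 0 below and 0 vessel-matrix Adamts promoters, with 43 adjusted p-values undefined. With at least 20 reads in each input, which leaves 28 members, 3 were above input and 6 below. In that fit 2446 of all promoters with this minimum were above and 1678 below. Of the members, 1 testis Adam promoter was above and 1 vessel-matrix Adamts promoter below. Under that minimum, 4 members ranked in the upper quartile by both experiments. Removal of the GC trend gave 6 so ranked. Leaving out 1 library gave 4 to 8 members above, 0 to 8 below, 2 to 5 testis Adam promoters above and 0 to 2 vessel-matrix Adamts promoters below, in fits that take the lone library to vary like the pair. The median difference of testis Adam and vessel-matrix Adamts promoters was 2.00 with a pseudocount of 0.5 reads, 1.16 with 5 reads and 1.10 after GC removal. Alternatives added after the values were seen gave 0.66 (GC removal without Adam1a and Adam34) and 1.16 (GC removal with all 19 Adamts promoters). Scaling by library totals shifted the fitted log2 fold changes by a median of -0.14, and gave 8 members above and 17 below. In that fit 4303 of all 26354 promoters were above and 5677 below, compared with 4902 and 4484 in the main fit. At 29 of the 57 members an input held fewer than 20 reads, which limits the precision at single promoters. The cause of each change was not tested.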
